A study of Mus musculus with 4 samples.

Results

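The genes described here form the IL-33 and IL-4/IL-13 receptor axis of cultured mouse fibro-adipogenic progenitors (FAPs), stromal cells of skeletal muscle that were sorted here on the surface marker Sca1. They are the cytokine gene Il33, its receptor gene Il1rl1 (ST2), the receptor chain genes Il4ra and Il13ra1, and the transcription factor gene Stat6. These 5 genes, of 28649 in the deposited sheet, were picked by symbol, with their levels in miR-206 knockout (KO) and wild-type cells already known. The KO against wild-type values of the 5 are therefore a description and are given without a test.

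RNA was sequenced from 2 libraries of sorted miR-206 KO FAPs and 2 libraries of sorted wild-type C57Bl/6 FAPs. Cells of both genotypes were grown in DMEM with 20% fetal bovine serum, 10% horse serum and 5 ng/ml FGF, then held for 48 hours in DMEM with 10% horse serum. The level of miR-206 itself is not analysed here, and the genotypes are taken as labelled. The labels give neither mouse age nor the background strain of the KO mice, so a strain difference and loss of miR-206 cannot be told apart. Nothing in the labels states that replicates were separate mice or cultures. The p-values given further on therefore cover the spread among the 4 libraries alone, and that spread may be technical.

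IL-33 is an alarmin, a cytokine kept in the nucleus of stromal and barrier cells and released on damage. It binds ST2, which signals with the shared chain IL1RAP through MyD88, and a soluble form of ST2 lacks the membrane anchor and acts as a decoy. In mouse muscle, FAPs are a known source of IL-33, which sustains regulatory T cells after injury. IL-4 and IL-13 bind a type II receptor of IL-4Rα and IL-13Rα1 on non-hematopoietic cells. That receptor activates STAT6 through JAK kinases, and in injured mouse muscle this route is known to favour FAP proliferation over fat formation.

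The miRNA deleted in the KO mice and its match among these genes are shown first, since genotype is the only condition that the labels vary. The mature miR-206 strand lies on the plus strand at chr1:20679055-20679076 of GRCm38.p6 (sequence from RefSeq), and its seed, bases 2 to 8, is in capitals.
mmu-miR-206-3p: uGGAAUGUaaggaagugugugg
The longest annotated 3' UTR of each gene was searched for the seed match, in the forms ACATTCCA (8 bases), ACATTCC and CATTCCA (7 bases each). Il13ra1 held 1 match, a 7mer beginning 1380 bases after the stop codon. The stretch around it, chrX:36170276-36170303 on the plus strand of GRCm38, is printed with the match in capitals.
Il13ra1 3' UTR: tatatatcccCATTCCAaccatttctgc
Il33, Il1rl1, Il4ra and Stat6 held none in 3' UTRs of 1677, 3246, 2420 and 976 bases. Thus 1 of 5 genes held a match, where 19.0% of 13767 tested genes with a 3' UTR did. For Il1rl1 the search covered the UTR of the transcript Il1rl1-202. The separate 1444-base UTR of the shorter transcript Il1rl1-203 was not searched. A match describes letters and does not show that the miRNA binds there.

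The promoters of the 3 genes with higher levels in KO are shown because those genes moved together. The promoter table held 7 windows for the 5 genes, running from 250 bases before to 50 after an annotated start, with a pair of windows each for Il33 and Il1rl1. The STAT6 letters, TTC and GAA with 4 bases of any kind between them, which read the same on both strands, were found in 1 of the 7 windows, the upstream one of Il33, 36 bases before the start. Of 32851 mouse promoters of this length, 6.95% held them. Capitals mark the STAT6 letters in the Il33 window at chr19:29924863-29925162 and each CG in the other 2, all on the plus strand of GRCm38.p6 (RefSeq).
Il33 upstream promoter: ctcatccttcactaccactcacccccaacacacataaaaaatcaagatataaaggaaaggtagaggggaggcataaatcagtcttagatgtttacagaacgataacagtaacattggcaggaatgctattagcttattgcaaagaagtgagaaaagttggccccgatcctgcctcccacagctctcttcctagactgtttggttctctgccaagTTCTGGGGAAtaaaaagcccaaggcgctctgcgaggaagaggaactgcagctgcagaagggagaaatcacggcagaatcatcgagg
Il4ra promoter, chr7:125552021-125552320: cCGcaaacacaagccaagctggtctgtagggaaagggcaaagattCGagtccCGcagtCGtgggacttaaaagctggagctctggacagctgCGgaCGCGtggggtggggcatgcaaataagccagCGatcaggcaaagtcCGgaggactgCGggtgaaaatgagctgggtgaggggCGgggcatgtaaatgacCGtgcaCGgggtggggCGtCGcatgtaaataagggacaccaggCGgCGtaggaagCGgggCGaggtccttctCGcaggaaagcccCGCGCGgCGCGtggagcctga
Il13ra1 promoter, chrX:36111858-36112157: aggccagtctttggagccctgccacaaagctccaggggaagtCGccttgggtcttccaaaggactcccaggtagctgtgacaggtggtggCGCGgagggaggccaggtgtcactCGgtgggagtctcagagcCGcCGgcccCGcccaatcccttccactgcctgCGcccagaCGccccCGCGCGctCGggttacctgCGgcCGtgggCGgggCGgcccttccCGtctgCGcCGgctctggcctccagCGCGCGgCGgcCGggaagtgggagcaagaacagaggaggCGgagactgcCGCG
The Il4ra and Il13ra1 windows held 25 and 28 CG pairs, and their GC content was 62.0% and 71.0%. The windows of Il33 held 6 and 5 and those of Il1rl1 held 1 and 3, beside a median of 7 over all promoters. Stat6 held 8. The 3 genes with higher KO levels thus fell on both sides of that median.

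Library totals ran from 30550235 to 44561117 estimated counts, and 14507 genes passed the low-count filter, all 5 members among them. Over all these genes, 62 changed (edgeR quasi-likelihood test, Benjamini-Hochberg adjusted p at most 0.05), which is 0.427%. FAP markers were present throughout: 11 of 11 passed the filter, led by Col3a1. The Pdgfra level was 1959 and 1902 CPM (counts scaled to library size with TMM) in KO and 1455 and 1520 CPM in wild type. Ly6a, the gene of the sort marker Sca1, went the other way, at 657 and 732 CPM in KO and 882 and 1234 CPM in wild type. Of the 11 markers, 5 lay with both KO libraries above both wild-type libraries and 2 below, beside 23.8% and 24.4% of all tested genes. None of them passed the edgeR threshold. Other cell types also left RNA. Summed over 11 muscle-lineage markers, the TPM level (a level per transcript length) was 955 and 112 in KO and 1751 and 1046 in wild type. Over 8 adipocyte markers it was 776 and 534 in KO and 1620 and 1165 in wild type. The highest of the muscle markers was Acta1 and of the adipocyte markers Lpl, and Pax7, Myf5 and Lep had at most 19 counts in any library. All 9 tested muscle genes and all 7 tested adipocyte genes had negative log2 fold changes, and of these Cidec, a lipid droplet gene, passed the edgeR threshold. Both KO libraries lay below both wild-type libraries for 6 of the 9 and for 7 of the 7, beside 24.4% of all tested genes. The muscle values were uncertain, as for Acta1 at -1.39 log2 (SE 1.41), and the muscle sum was lowest in KO replicate 2. Bulk RNA cannot separate fewer cells of a type from less RNA per cell.

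Il33 was the member with the largest difference. Its level was 135 and 141 CPM in the KO libraries and 59.9 and 58.0 CPM in the wild-type libraries. The KO libraries were both well above the wild type, with little spread inside either genotype. The means were 138 ± 3.98 and 59.0 ± 1.35 CPM (SD, n = 2), a log2 fold change of 1.22 (SE 0.07), or 2.34-fold. The gene spans chr19:29925114-29960718 on the plus strand of GRCm38. The summed muscle-lineage and adipocyte markers were lower in both KO libraries than in either wild-type library, and their part in the Il33 difference was not tested.

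Il1rl1, the ST2 gene, was the most abundant of the 5 on the per-length scale and the member with lower KO levels. It had 233 and 231 TPM in KO and 305 and 299 TPM in wild type, and by mean TPM it ranked 499 of 14507 genes. In CPM it had 353 and 358 in KO against 488 and 460 in wild type, again without overlap. The log2 fold change was -0.42 (SE 0.07), which leaves the KO level at 0.749 of the wild-type level. The gene lies at chr1:40429570-40465415 on the plus strand.

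Il4ra, the chain that binds IL-4, had 327 and 300 CPM in KO and 160 and 177 CPM in wild type. Il13ra1, the chain that pairs with it, had 150 and 137 CPM in KO and 74.9 and 82.0 CPM in wild type. In both genes the KO libraries were above the wild-type libraries, KO replicate 1 above KO replicate 2 and wild type replicate 2 above wild type replicate 1. The log2 fold changes were 0.89 (SE 0.09) for Il4ra and 0.87 (SE 0.08) for Il13ra1, or 1.86-fold and 1.82-fold. On the TPM scale Il4ra exceeded Il13ra1 by 1.58-fold in each KO library and by 1.54-fold and 1.56-fold in the wild-type libraries, so the ratio of these chains barely moved while their levels did. Il4ra lies at chr7:125552120-125579474 and Il13ra1 at chrX:36112110-36171259, both on the plus strand.

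Stat6, the factor downstream of that receptor, had 128 and 140 CPM in KO and 134 and 139 CPM in wild type. Its genotypes overlapped, and the log2 fold change was -0.03 (SE 0.08). The gene lies at chr10:127642986-127660957 on the plus strand.

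Of the 5 members, 3 lay with both KO libraries above both wild-type libraries, 1 lay below and 1 overlapped. Among all tested genes 23.8% lay above and 24.4% below. Since the members were picked on this contrast, nothing is read from these counts.

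**Figure D1:**
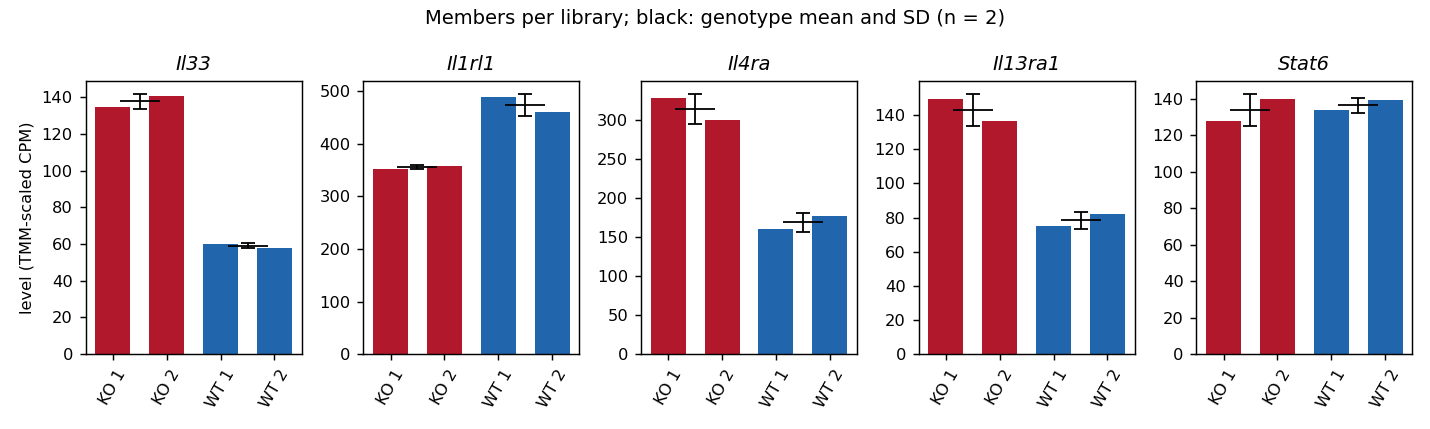
Bars give the level of each member in TMM-scaled CPM (vertical axis from 0) in the KO libraries (red) and wild-type libraries (blue), with the genotype mean and SD of 2 libraries in black. Il33, Il4ra and Il13ra1 are higher in both KO libraries, Il1rl1 is lower in both, and the Stat6 libraries overlap.

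The order of the levels differed between genotypes on the per-length scale. In wild type the TPM means ran from Il1rl1 (302 ± 4.25, SD, n = 2) through Stat6 (72.3 ± 1.11), Il4ra (54.5 ± 4.49) and Il33 (42.9 ± 4.29) to Il13ra1 (35.2 ± 2.58). In KO they ran from Il1rl1 (232 ± 0.883) through Il4ra (101 ± 4.30), Il33 (96.2 ± 4.79) and Stat6 (71.0 ± 5.26) to Il13ra1 (63.9 ± 2.86). Stat6 stood above Il4ra and Il33 in both wild-type libraries and below them in both KO libraries. Il4ra and Il33 overlapped in KO, whereas no other neighbours in either order shared a range. The TPM ratio of Il1rl1 to Il33 was 7.66 and 6.51 in wild type and 2.51 and 2.32 in KO. The Il1rl1 TPM takes in transcripts of the membrane and the soluble form of ST2 together, so this is not a ratio of signalling receptor to ligand. The authors' deposited table gave log2 differences of 1.17 for Il33, -0.38 for Il1rl1, 0.89 for Il4ra, 0.86 for Il13ra1 and -0.03 for Stat6.

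The deposited values also bear on which transcripts carried the reads, a measure that the choice of genes did not use. Dividing a gene's estimated count by its TPM gives its mean transcript length, weighted by transcript abundance, up to a scale and an offset. Both were set for each library from 652 genes with 1 annotated transcript, and the offset lay between 146.2 and 162.9 bases. Between 88.0% and 88.3% of those genes came back within 5% of their annotated length. Il13ra1, with 1 annotated transcript of 3712 bases, meets the rule for these genes and came back at 3712 in each library. The same genes set the fit, so these figures are not a separate check of it. Il4ra came back at 5092 in each library, against 5256 bases in GENCODE M21, so the authors' annotation was not identical to the one used here. Stat6 came back between 3046 and 3274 bases, below the 3775 of its complete coding transcript.

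For Il1rl1 the implied mean length was 2528 and 2649 bases in KO and 2690 and 2617 bases in wild type. The annotated transcripts for the 567-residue membrane form, Il1rl1-201 and Il1rl1-202, are 5053 and 5302 bases long. Il1rl1-203, which ends in an earlier exon and encodes a 337-residue protein, is 2661 bases long, and all 4 libraries lay near it. A further complete transcript for 337 residues, Il1rl1-205, is 1216 bases long. A mixture of Il1rl1-205 with the long transcripts could give the same means, so nearness to Il1rl1-203 does not identify the transcript. A protein of 337 residues is the known soluble ST2 of mouse, which fibroblasts are known to secrete. If all other Il1rl1 transcripts were Il1rl1-203, those like Il1rl1-202 would make up 1.1% of the Il1rl1 TPM in wild type replicate 1. The means of KO replicate 1 (2528), KO replicate 2 (2649) and wild type replicate 2 (2617) lay below the 2661 bases of Il1rl1-203. No mixture of these transcripts gives such a mean, so no share is given there. The mean alone allows more, up to between 46.0% and 49.5% of transcripts like Il1rl1-201 if all the rest were the shortest one, the 375-base fragment Il1rl1-204. The genotypes overlapped in this measure. Il1rl1 counts lay up to 0.468 from a whole number and those of the other 4 genes at most 0.0029, so some Il1rl1 reads may have been divided with another gene.

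For Il33 the implied length was 2430 and 2432 bases in KO and 2537 and 2179 bases in wild type. Its complete transcripts Il33-202, from the upstream promoter, and Il33-201, from the downstream one, are 2537 and 2544 bases long. The wild-type replicate 1 value equals the former, although a mixture with shorter fragments could give the same mean, and the other 3 libraries lay below both. This bears on the scale of the result. In CPM wild type replicate 1 exceeded replicate 2, at 59.9 against 58.0, whereas in TPM it was the lower, at 39.8 against 45.9.

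**Figure D2:**
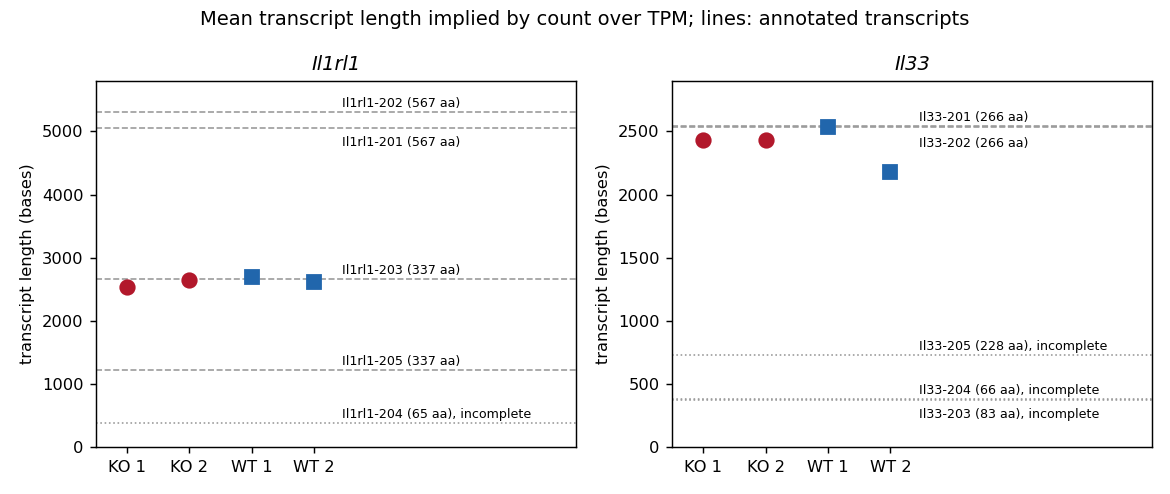
Mean transcript length in bases implied by count over TPM for Il1rl1 (left) and Il33 (right) in each library (KO red, wild type blue), with annotated transcript lengths as lines and their encoded protein lengths (aa, amino acids). Il1rl1 values of 2528 to 2690 bases lie near Il1rl1-203, a transcript for 337 residues, though mixtures of other transcripts could give them. For Il33, wild type replicate 2 is lowest at 2179 bases.

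The rest of the pathway was followed in 9 lists, with 126 of 127 listed genes in the sheet and 94 tested. Of the 94, 3 rose and 0 fell, namely Cxcl5, Socs3 and Tgm2, beside 0.241% and 0.186% of all tested genes. At an unadjusted edgeR p under 0.05 there were 19 of 94, against 2080 of all 14507 genes. The DESeq2 test called 12 of the 94, against 695 of all 14507 genes. The median log2 fold change was 0.07 over the 94 genes and 0.00 over all tested genes. The lists were drawn up with earlier results of these data known.

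Among IL-1 family ligands, 0 of 5 tested genes changed, with a list median of -0.13 log2. Il1rn, the secreted antagonist of the IL-1 receptor, had 169 and 125 CPM in KO and 59.1 and 50.04 CPM in wild type. The genotypes did not overlap, but the KO libraries differed, and the log2 fold change of 1.43 (SE 0.18) did not pass the threshold (edgeR adjusted p = 0.0762). Il18, the other ligand of highest TPM, had 5.09 and 8.59 TPM in KO and 5.46 and 11.3 TPM in wild type. Il1b and Il1f6 had 0 counts in each library.

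Of 5 tested IL-1 family receptor genes, 0 changed, with a median of 0.25 log2. Il1r1, the IL-1 receptor, had 489 and 476 CPM in KO and 337 and 370 CPM in wild type, a log2 fold change of 0.45 (SE 0.08, edgeR adjusted p = 0.0792). Il1rl2, the IL-36 receptor, had a log2 fold change of 0.28 (SE 0.13). Il1rap, the chain that ST2 and the IL-1 receptor both need, had 25.1 and 22.7 TPM in KO and 20.3 and 24.7 TPM in wild type. Its genotypes overlapped. Il1rl1, membrane and soluble forms together, exceeded it by 9.27-fold and 10.2-fold in KO and by 15.1-fold and 12.1-fold in wild type on the TPM scale.

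The MyD88 and IRAK list, which carries the signal from these receptors, had 0 of 22 genes changed and a median of 0.04 log2. Irak1, a kinase of the receptor complex, and Tab2, an adaptor of the kinase TAK1, had log2 fold changes of -0.06 (SE 0.06) and 0.08 (SE 0.07). Of 16 tested NF-κB feedback and target genes, Cxcl5 rose and 0 fell, with a median of 0.01 log2. Cxcl5, a neutrophil chemokine, had 204 and 197 CPM in KO and 123 and 115 CPM in wild type, a log2 fold change of 0.75 (SE 0.07, edgeR adjusted p = 0.0236). The call did not survive leaving out KO replicate 1 (edgeR adjusted p = 0.115), KO replicate 2 (0.0909) or wild type replicate 2 (0.0712). Of the proteases reported to cut IL-33, 0 of 6 tested genes changed, with a median of -0.05 log2. They were led by Capn2 and Capn1 at -0.16 (SE 0.08) and -0.08 (SE 0.07) log2.

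The ligands of the IL-4 and IL-13 arm were scarce in these cultures. Il13 and Il5 had 1 and 2 counts in KO replicate 1 and 0 in the other libraries, and Il9 and Il31 had 0 in each library. Il4 had 29 and 11 counts in KO and 35 and 44 in wild type. Tslp, an epithelial and stromal cytokine of type 2 immunity, had 4.38 and 3.96 TPM in KO and 2.96 and 2.04 TPM in wild type, a log2 fold change of 0.74 (SE 0.36, edgeR adjusted p = 0.418). Of the 2 tested genes, Il4 and Tslp, 0 changed.

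Among 7 tested type 2 cytokine receptor genes other than the members, 0 changed, with a median of 0.56 log2. That median was the value of Il13ra2 (SE 0.45). Above it stood Il2rg and Il31ra, with at most 27 and 13 counts in any library, and Csf2rb, at 1.02 (SE 0.35). Crlf2 was at -0.03 (SE 0.12). Osmr, a receptor chain for oncostatin M and IL-31, and Il17ra, a chain of the IL-17 and IL-25 receptors, had log2 fold changes of 0.37 (SE 0.08) and 0.26 (SE 0.08), with edgeR adjusted p of 0.122 and 0.208. Il2rg, the common gamma chain that pairs with IL-4Rα in the type I receptor of blood cells, had 1.11 and 0.606 TPM in KO and 0.293 and 0.543 TPM in wild type. Il13ra1 exceeded it by between 59.1-fold and 114-fold on that scale. Il13ra2, a decoy receptor for IL-13, had between 1.17 and 3.08 TPM, with overlapping genotypes.

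Of 21 tested JAK-STAT transducers and brakes, Socs3 rose and 0 fell, with a median of 0.12 log2. Socs3, a feedback inhibitor of cytokine receptors best known downstream of IL-6 family cytokines, had 212 and 197 CPM in KO and 125 and 138 CPM in wild type. The log2 fold change was 0.64 (SE 0.08, edgeR adjusted p = 0.0435). Leaving out any 1 library ended this call, with edgeR adjusted p of 0.153 and 0.142 without the KO libraries in turn and 0.114 and 0.0748 without those of wild type. The kinases that serve IL-4Rα and IL-13Rα1 were Jak1, at between 146 and 178 TPM, Jak2, at between 22.5 and 29.6 TPM, and Tyk2, at between 13.6 and 15.0 TPM. Their log2 fold changes were -0.05 (SE 0.09), 0.23 (SE 0.10) and 0.11 (SE 0.08). Socs1, an inhibitor of STAT6 signalling, had between 16.0 and 23.1 TPM.

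Of 13 tested STAT6 target genes, Tgm2 rose and 0 fell, with a median of 0.08 log2. Tgm2 encodes a transglutaminase that crosslinks matrix proteins and is known to respond to many signals besides STAT6. It had 251 and 245 CPM in KO and 136 and 129 CPM in wild type, a log2 fold change of 0.90 (SE 0.07, edgeR adjusted p = 0.0116). Without KO replicate 1 the edgeR adjusted p was 0.0899, without KO replicate 2 it was 0.0822, and without wild type replicate 2 it was 0.0514, so the call ended in these 3 fits. The macrophage targets Retnla, Chil3, Ccl17 and Pdcd1lg2 had 0 counts in each library. Of 11 mast cell, eosinophil and ILC2 markers, 3 were tested and Fcer1a, Tpsb2 and Epx had 0 counts in each library. Of 9 hematopoietic markers, Adgre1 and Cd52 had 0 counts in each library, and the summed level of the list lay between 4.65 and 6.23 TPM. Of its 4 tested genes 0 changed, with a median of 0.76 log2. Ptprc, the pan-leukocyte gene, had 22 and 29 counts in KO and 4 and 9 in wild type, and Csf1r, a macrophage receptor gene, had 3.88 and 2.42 CPM in KO and 0.673 and 1.77 CPM in wild type. Ptprc and Csf1r were higher in each KO library and neither passed the edgeR threshold. The remaining tested genes of the list overlapped between genotypes. Cd68, its gene of highest TPM, had 2.23 and 2.75 CPM in KO and 2.55 and 1.88 CPM in wild type. Laptm5 had a log2 fold change of -0.55 (SE 0.65). The part of hematopoietic cells in the other results was not tested.

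**Figure D3:**
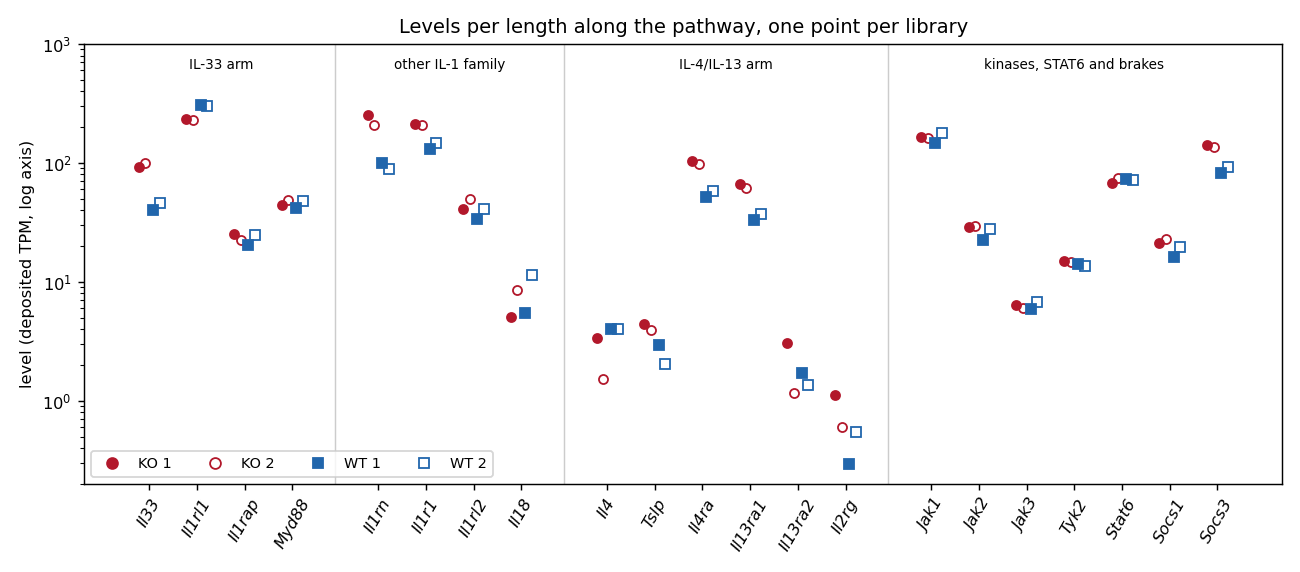
Deposited TPM on a log axis for genes of the pathway grouped by role, with 1 point per library (KO red circles, wild type blue squares, replicate 2 open). The receptor chains Il4ra and Il13ra1 stand far above Il2rg and the ligand Il4, and Il1rl1 is above Il1rap in each library.

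**Figure D4:**
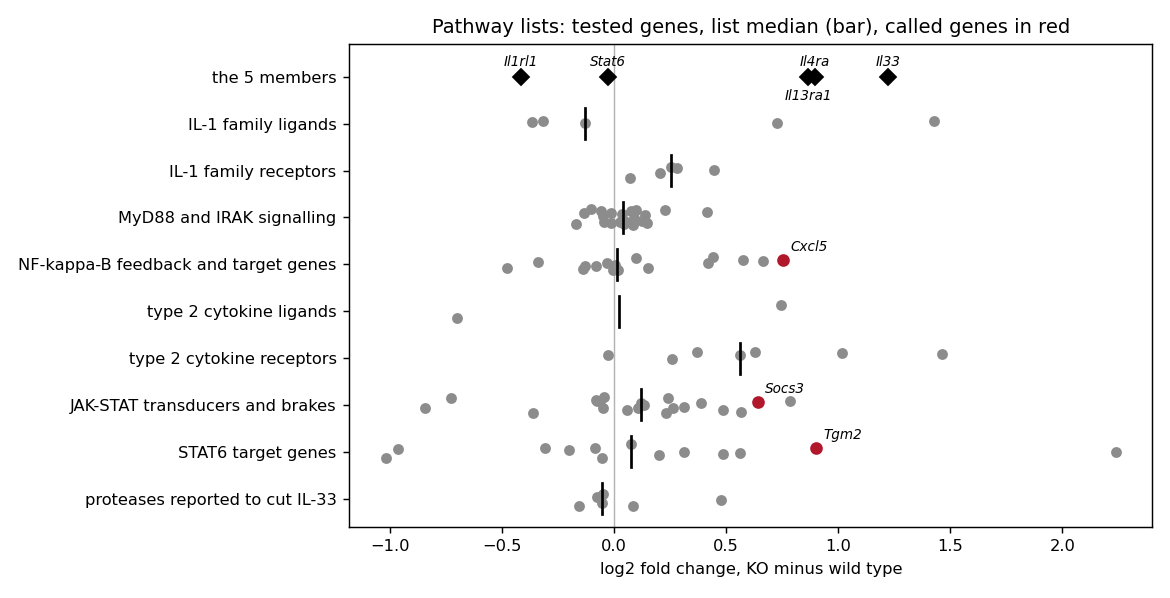
Log2 fold change of KO over wild type (horizontal axis) for tested genes of the 9 pathway lists, with called genes in red, list medians as bars and the 5 members as diamonds on top. The list medians lie between -0.13 and 0.56, and the called genes are Cxcl5, Socs3 and Tgm2. The highest median, of the type 2 cytokine receptors, is the value of Il13ra2 (SE 0.45).

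For each member, the 3 genes of at least 5 mean CPM with the most similar pattern were sought among 10555 candidates, by Euclidean distance between mean-centred log2 CPM over the 4 libraries. These distances use the values by which the members were picked and are a description. Il4ra and Il13ra1 were closer to each other, at a distance of 0.031, than either was to any of the 10555. After each other, both had Adcy5 and AW551984 nearest, at 0.041 and 0.053 for Il4ra and 0.049 and 0.062 for Il13ra1. Il33 was less closely matched, with Ltbp1 at 0.149, Ahsg at 0.168 and Cda at 0.199, and it lay 0.378 from Il4ra, with 22 candidates nearer. Helq, Cdk5rap2 and Vma21 were nearest to Il1rl1, at 0.024 to 0.032. Plxnb2 and Tmem170b were nearest to Stat6, at 0.007 and 0.011, where flat patterns are common. On log2(TPM + 1), 0 of these 15 pairings of a member and a neighbour were found again, so the neighbours depend on the scale.

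**Figure D5:**
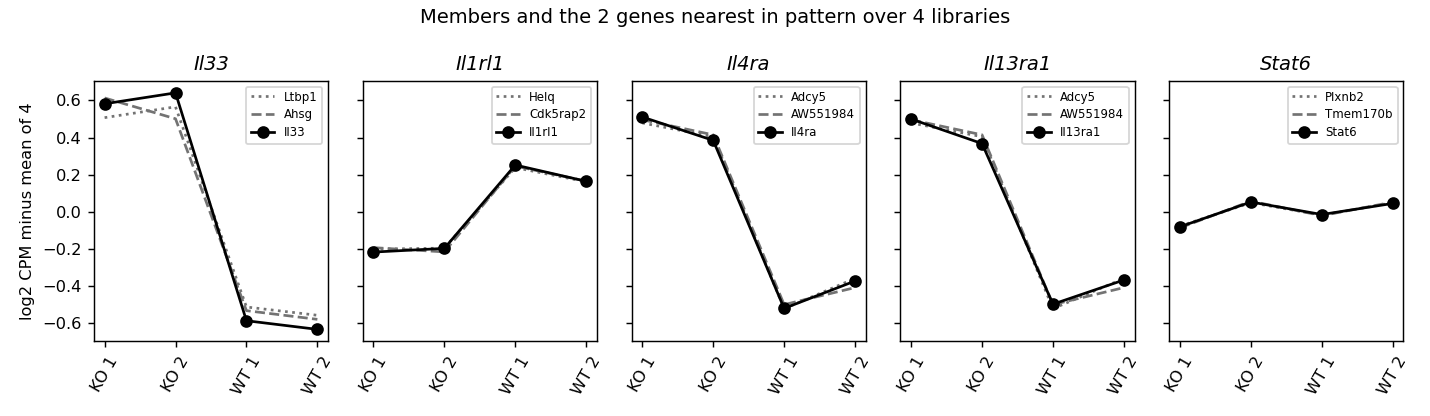
Log2 CPM of each member (black) and of its 2 nearest genes (grey), each minus its own mean over the 4 libraries, by library. Il4ra and Il13ra1 have nearly the same profile, and Il33 shows a wider gap between the genotypes.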

How the data were processed

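Per the submitters' processing notes, reads were processed with FastQC and kallisto on mm10; versions and annotation release: not given in the sources used here. A stranded mRNA kit was used, per the labels' protocols. The authors deposited estimated counts per gene, not normalized, and TPM per gene. A further deposited sheet holds log2 differences of genotype mean TPM. kallisto divides reads shared by similar transcripts by likelihood, so counts of related genes can mix.

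Gene names that a spreadsheet had turned into dates (27) were restored by transcript. Estimated counts were rounded to whole numbers for edgeR 4.0.16, run in R 4.3.3 (TMM, filterByExpr, robust quasi-likelihood F-test, Benjamini-Hochberg over 14507 genes, two-sided threshold 0.05). The standard error is the log2 fold change over the square root of F. The fit was tested on simulated counts. CPM are TMM-scaled. GENCODE M21 (GRCm38) gave positions, transcripts and 3' UTRs, matched by transcript for 28335 of 28649 genes. RefSeq tables gave sequences, and all 5 members matched. Positions count from 1. Replicates differed by more than sampling noise (chi-square per gene 38.5 in KO and 29.0 in wild type).

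The members and lists were chosen with earlier results of these data known. The text names each called list gene, otherwise the 2 list genes of highest mean TPM, the 3 genes nearest each member, leaving out Gm and Rik names, and each marker list's leading gene and genes at 0; a few genes these rules pick are not reported here. Pdgfra, Ptprc, Csf1r, Pax7, Myf5, Lep, Il1rap, Il2rg, Il13ra2, Socs1, Il5, Il13 and the JAK genes were added for their place in the pathway after their values were seen. Ly6a, Laptm5, Crlf2, Csf2rb and Il31ra were also added after their values were seen. Alternatives were DESeq2 1.42.0 (size factors and test), limma 3.58.1 (voom, and log2(TPM + 1)), library size alone, no filter, no robust estimation, a replicate block and leaving out each library.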

Additional observations from a re-analysis of the deposited data

How the results depend on the processing

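Il33, Il4ra, Il13ra1 and Il1rl1 kept the direction of their differences. Over the alternatives the log2 fold change ran from 1.15 to 1.25 for Il33, 0.82 to 0.97 for Il4ra, 0.80 to 0.94 for Il13ra1 and -0.46 to -0.37 for Il1rl1. That of Stat6 ran from -0.09 to 0.04 and so changed sign. Il33 moved by more than its replicate spread with library size alone (1.18) and on log2(TPM + 1) (1.15). The number of changed genes was less stable than these values. Against 62, it was 133 with library size alone, 491 with no low-count filter, 11 without robust estimation, 695 with the DESeq2 test, 14 with limma-voom, 7 with limma on log2(TPM + 1), and 7 to 77 in the fits that left out a library. Against 3 changed pathway genes, the same alternatives gave 10 with no filter, 1 without robust estimation, 12 with DESeq2, 1 with limma-voom, 0 on log2(TPM + 1) and 0 to 4 without a library. With the replicate number as a block, 265 genes and 7 pathway genes passed. The deviations of same-numbered libraries correlated at 0.187 over genes, but 2 pairs cannot show that the numbers pair the samples. With 3 bases between TTC and GAA, 0 members held the STAT6 letters, against 1. The cause of these shifts was not tested, except that a fit without a library has fewer samples. A fit of 2 against 2 libraries limits every call, and the low counts of Il4, Il13 and Il2rg limit what can be said of them.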
